A study of Mus musculus with 18 samples.

Results

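Sox4, Runx1, Runx2, Runx3, Cbfb, Id2, Id3, Zeb1 and Zeb2 are genes of transcription regulators that take part in lineage choice of T cells, and their mRNA was followed in cultured mouse CD4+ T cells. The genes were taken by symbol from a list chosen with earlier results of these data known, and distinct rows of one symbol were summed. All 9 were found in both deposited tables, among 22783 symbols in experiment 1 and 16639 in experiment 2. Naive CD4+ T cells were sorted from C57BL/6 spleens and stimulated through CD3 and CD28, and RNA was taken on day 4. In experiment 1 the tKO cells carried floxed Egln1, Egln2 and Egln3 with Cd4Cre (Egln1fl/fl Egln2fl/fl Egln3fl/fl Cd4Cre), and the WT cells carried Cd4Cre, with no floxed allele in their label. Both genotypes therefore carry the Cd4Cre transgene, which acts in developing T cells. Each genotype was cultured at 0, 0.2 and 2 ng/ml TGF-b, with 2 libraries per group. In experiment 2 wild-type cells received 1 mM DMOG or vehicle, all at 2 ng/ml TGF-b, with 3 libraries per group. Egln genes encode the prolyl hydroxylases (PHD proteins) that mark hypoxia-inducible factors for destruction, and DMOG inhibits these and related enzymes. The comparisons ask how losing PHD proteins, or inhibiting them, alters these genes as TGF-b rises.

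RUNX proteins bind DNA with their partner CBFb, and in mouse T cells RUNX3 is known for driving the CD8 and Th1 programmes, RUNX1 for roles in development and regulatory T cells. Id proteins lack a DNA-binding region and hold E proteins off DNA. Id2 is associated with effector cells, and Id3 with naive, memory and regulatory cells. ZEB1 and ZEB2 are repressors that bind E-boxes, and ZEB2 goes with terminal effector differentiation together with T-bet. SOX4 is an HMG-box factor whose gene is a known TGF-b target in T cells.

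Upstream sequences of the 4 genes whose mRNA differed between tKO and WT are printed to show where letters bound by SMAD proteins or hypoxia-inducible factors occur beside their starts. Both starts of Runx1 are added because the Runx1 rows diverged with DMOG. Each is the 250 bases before an annotated start, from RefSeq on GRCm38.p6, 5′ to 3′ on the gene's strand. Capitals mark the SMAD box CAGAC and the hypoxia core ACGTG or GCGTG, on either strand. Such stretches were read for all members except Zeb1, for which none is available here. The first stretch, chr13:28953700-28953949 on the minus strand, lies before Sox4.
Sox4: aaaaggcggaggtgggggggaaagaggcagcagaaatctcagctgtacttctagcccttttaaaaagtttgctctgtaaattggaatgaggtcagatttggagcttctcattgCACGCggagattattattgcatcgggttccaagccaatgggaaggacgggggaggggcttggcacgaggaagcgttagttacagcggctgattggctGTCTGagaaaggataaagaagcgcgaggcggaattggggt
It held 1 SMAD box, 40 bases before the start, and 1 hypoxia core, 137 bases before it. The next, chr12:25096093-25096342 on the minus strand, lies before Id2.
Id2: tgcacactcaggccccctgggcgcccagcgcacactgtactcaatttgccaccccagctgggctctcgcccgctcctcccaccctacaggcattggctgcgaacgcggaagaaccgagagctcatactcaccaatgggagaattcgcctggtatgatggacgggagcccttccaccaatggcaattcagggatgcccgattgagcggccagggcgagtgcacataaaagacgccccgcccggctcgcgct
It held neither set of letters. The Id3 stretch, chr4:136143572-136143821 on the plus strand, follows.
Id3: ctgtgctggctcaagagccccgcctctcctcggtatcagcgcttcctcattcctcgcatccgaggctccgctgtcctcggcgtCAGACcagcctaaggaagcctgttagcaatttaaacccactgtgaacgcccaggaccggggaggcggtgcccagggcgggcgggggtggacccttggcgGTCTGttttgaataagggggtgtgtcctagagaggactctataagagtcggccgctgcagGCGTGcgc
It held 2 SMAD boxes, 167 and 68 bases before the start, and 1 hypoxia core, 8 bases before it. Before the distal start of Runx3 lies chr4:135120395-135120644 on the plus strand.
Runx3 distal: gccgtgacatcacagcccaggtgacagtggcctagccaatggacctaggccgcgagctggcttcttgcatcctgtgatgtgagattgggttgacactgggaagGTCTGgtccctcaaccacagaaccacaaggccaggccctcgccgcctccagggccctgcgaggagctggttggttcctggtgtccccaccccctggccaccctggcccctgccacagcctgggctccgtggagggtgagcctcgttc
It held 1 SMAD box, 147 bases before the start, and no hypoxia core. The distal start of Runx1 is preceded by chr16:92826075-92826324 and the proximal one by chr16:92697330-92697579, both on the minus strand.
Runx1 distal: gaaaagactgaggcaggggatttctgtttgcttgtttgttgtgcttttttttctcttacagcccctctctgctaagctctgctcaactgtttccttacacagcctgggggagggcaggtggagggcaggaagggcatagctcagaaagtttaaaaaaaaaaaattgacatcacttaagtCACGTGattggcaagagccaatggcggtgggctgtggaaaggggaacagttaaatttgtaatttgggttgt
Runx1 proximal: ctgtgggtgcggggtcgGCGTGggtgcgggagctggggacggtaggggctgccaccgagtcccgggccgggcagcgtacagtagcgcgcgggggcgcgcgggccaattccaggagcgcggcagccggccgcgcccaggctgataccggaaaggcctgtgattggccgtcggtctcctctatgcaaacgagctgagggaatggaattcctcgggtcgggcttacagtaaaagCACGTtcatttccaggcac
Neither Runx1 stretch held a SMAD box. The distal stretch held the palindrome CACGTG, which the hypoxia core matches on both strands (71 and 70 bases before the start) and which is also an E-box. The proximal stretch held 2 separate hypoxia cores, 233 and 19 bases before the start. Of the same windows before 32851 annotated starts, 42.2% held a SMAD box and 38.6% a hypoxia core, so a match is common and describes letters only. In the Runx3 distal stretch the RUNX motif TGTGGT, on either strand, began 134 and 126 bases before the start, against 14.0% of all windows with 1 or more and 1.3% with 2 or more. Before the second annotated start of Runx3, whose stretch is not printed, there was no RUNX motif and no hypoxia core, and 1 SMAD box 248 bases before the start.

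FPKM sums ranged over 548974 to 856147 per library in experiment 1 and 386382 to 443888 in experiment 2, and absolute depth is unknown. Reads per FPKM, judged from low values, lay between 0.703 and 1.36 of the typical library in experiment 1, lowest in tKO at 0.2 ng/ml, replicate 2. They lay between 0.865 and 1.25 in experiment 2. Whole-gene Egln1 covered 92.8 to 122 FPKM in tKO libraries against 20.4 to 44.3 FPKM in WT libraries, and Egln3 covered 77.4 to 140 FPKM in tKO libraries against 5.68 to 18.7 FPKM in WT libraries. Egln2 covered 19.9 to 39.0 FPKM in tKO libraries against 35.6 to 48.8 FPKM in WT libraries. Whole-gene values include exons outside any deleted part and are no check of the deletion. The 7 T cell markers were present in every library, summing to 1832 to 2193 FPKM in tKO and 2315 to 3173 FPKM in WT, and to 939 to 1219 FPKM with DMOG and 2006 to 2346 FPKM with vehicle. The 3 libraries of the series labelled tKO1 carried transcripts of the Y chromosome and the other 9 libraries of experiment 1 essentially none, so tKO1 and tKO2 cells came from different animals or pools, of unlike sex, and the series number marks a source that runs across the doses. For WT cells and for experiment 2 no label says whether replicates are separate animals, and there p-values measure the spread between these samples, which may be technical. Tests over the doses count the 3 libraries of a series as separate samples, and p-values are too small where those share animals. With the mean of each series as 1 sample, the differences over the doses in Sox4, Runx3, Id2 and Id3 kept their calls. In bulk RNA, fewer cells with a transcript and less RNA per cell cannot be told apart.

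TGF-b raised Sox4 mRNA steeply in both genotypes, but tKO cells stayed far below WT cells at every dose. At 0 ng/ml TGF-b, Sox4 was 0.380 and 0.395 FPKM in tKO and 1.58 and 2.03 FPKM in WT. The values at 0.2 ng/ml were 1.09 and 0.456 FPKM in tKO and 13.3 and 10.3 FPKM in WT. With 2 ng/ml they were 5.01 and 8.02 FPKM in tKO and 66.4 and 71.9 FPKM in WT. Genotypes did not overlap at any dose, and tKO cells at 2 ng/ml did not reach WT cells at 0.2 ng/ml. The ratio of the group means of WT to tKO was 4.66 at 0 ng/ml, 15.3 at 0.2 ng/ml and 10.6 at 2 ng/ml. Averaged over the doses, the tKO minus WT difference was -2.38 ± 0.17 on the log2(FPKM + 1) scale (± SE, as for all such differences; adjusted p = 2.89e-07, limma). At the single doses it was -1.01 ± 0.30 (adjusted p = 0.0492), -2.87 ± 0.30 (adjusted p = 2.82e-05) and -3.25 ± 0.30 (adjusted p = 1.35e-05). The call at 0 ng/ml rests on values near the pseudocount and held under 5 of 23 alternatives.

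In WT cells the 2 minus 0 ng/ml effect on Sox4 was 4.65 ± 0.30 (adjusted p = 1.22e-06), and its p-value ranked 4 among 10354 genes. In tKO cells it was 2.41 ± 0.30 (adjusted p = 0.000216). The 0.2 minus 0 ng/ml effect passed in WT, at 2.19 ± 0.30 (adjusted p = 0.00231), and not in tKO, at 0.33 ± 0.30 (adjusted p = 0.655). From 0.2 to 2 ng/ml the effect was 2.08 ± 0.30 in tKO (adjusted p = 0.00415) and 2.46 ± 0.30 in WT (adjusted p = 0.00215). Each of those 2 calls was lost without replicate 2 at 2 ng/ml of its genotype, with adjusted p 0.0984 in tKO and 0.0572 in WT. The difference between the genotypes in the 2 minus 0 ng/ml effect was -2.24 ± 0.42 (adjusted p = 0.0139), and in the 0.2 minus 0 ng/ml effect -1.86 ± 0.42 (adjusted p = 0.0866). The difference at 2 ng/ml depends on the scale. On linear FPKM the mean at 2 ng/ml was 16.8 times that at 0 ng/ml in tKO and 38.3 times in WT, and with a pseudocount of 0.1 the difference was -1.47 (adjusted p = 0.207). It also lost its call without any of 4 single libraries: tKO at 0 ng/ml, replicate 2 (adjusted p = 0.0551), tKO at 2 ng/ml, replicate 1 (0.0804), WT at 0 ng/ml, replicate 1 (0.0781), and WT at 2 ng/ml, replicate 2 (0.0610).

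**Figure D1:**
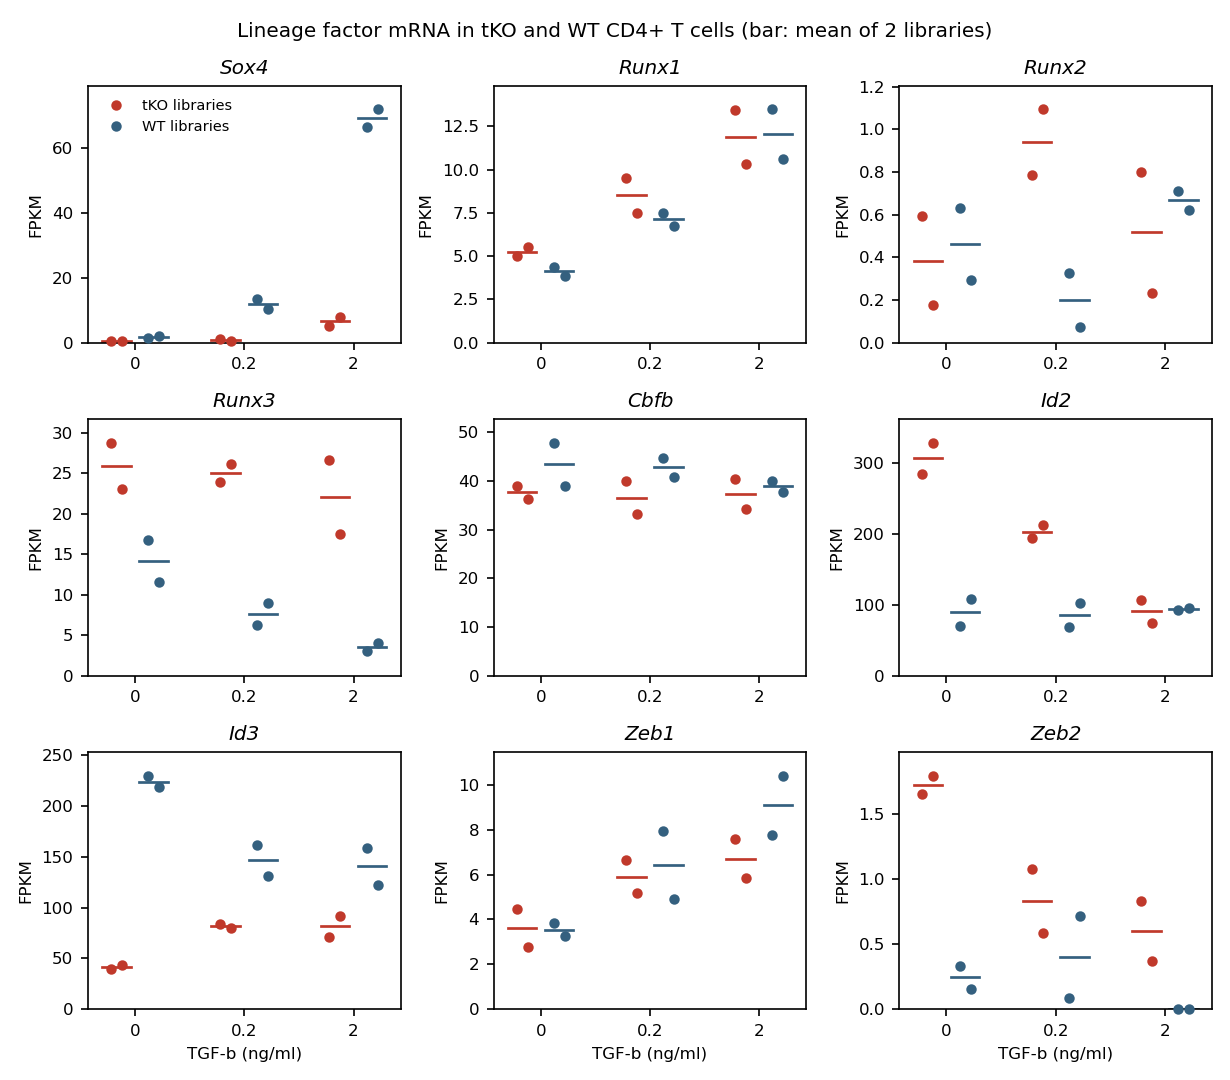
FPKM (linear axes that start at 0) of the 9 genes against TGF-b dose in experiment 1, with each point a library, tKO left of WT, and bars at the mean of 2 libraries. Sox4 climbs with dose to 66.4 and 71.9 FPKM in WT but to 5.01 and 8.02 FPKM in tKO, Runx3 stays between 17.6 and 28.8 FPKM in tKO while WT declines, and Id2 and Id3 differ most at 0 ng/ml.

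Runx3 ran against Sox4: it was high in tKO cells at every dose and fell with TGF-b in WT cells. Runx3 stood at 28.8 and 23.1 FPKM in tKO and 16.8 and 11.6 FPKM in WT at 0 ng/ml. At 0.2 ng/ml the libraries had 23.9 and 26.1 FPKM in tKO and 6.23 and 8.99 FPKM in WT. At 2 ng/ml they had 26.7 and 17.6 FPKM in tKO and 3.04 and 4.05 FPKM in WT. All 6 tKO libraries lay above all 6 WT libraries. The tKO minus WT difference was 0.84 ± 0.28 at 0 ng/ml (adjusted p = 0.0797, not passing), 1.61 ± 0.28 at 0.2 ng/ml (adjusted p = 0.00151) and 2.33 ± 0.28 at 2 ng/ml (adjusted p = 0.000106). Over the doses it was 1.59 ± 0.16 (adjusted p = 6.12e-06). In WT cells the 2 minus 0 ng/ml effect was -1.73 ± 0.28 (adjusted p = 0.00108). The effect in tKO cells was -0.24 ± 0.28 (adjusted p = 0.596), with a 95% interval of -0.83 to 0.36. The difference between those effects, 1.49 ± 0.39, missed the threshold (adjusted p = 0.0580) and was called under 6 of 24 alternatives. Among these was the labelled series as a block within each genotype, added after the Y transcripts were seen to follow the series (adjusted p = 0.0366). At 0.2 ng/ml the call was lost without the series labelled WT1 (adjusted p = 0.0550).

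Runx1 rose with TGF-b in both genotypes and was not shown to differ between them. Runx1 averaged 5.26 ± 0.35 FPKM in tKO and 4.11 ± 0.36 FPKM in WT at 0 ng/ml, 8.51 ± 1.42 FPKM in tKO and 7.14 ± 0.54 FPKM in WT at 0.2 ng/ml, and 11.9 ± 2.2 FPKM in tKO and 12.1 ± 2.0 FPKM in WT at 2 ng/ml (SD, n = 2 each). The tKO minus WT difference over the doses was 0.16 ± 0.14 (adjusted p = 0.445), with a 95% interval of -0.15 to 0.48. The 2 minus 0 ng/ml effect was 1.03 ± 0.25 in tKO (adjusted p = 0.0129) and 1.35 ± 0.25 in WT (adjusted p = 0.00304). The tKO call was lost without tKO at 0 ng/ml, replicate 1 (adjusted p = 0.0505) or replicate 2 (0.0673), or without tKO at 2 ng/ml, replicate 1 (0.119). As a description with no test, the ratio of Runx3 to Runx1 FPKM was 5.74 and 4.19 in tKO libraries and 3.83 and 3.01 in WT libraries at 0 ng/ml, and 1.99 and 1.70 in tKO libraries and 0.226 and 0.381 in WT libraries at 2 ng/ml. Runx3 was thus the more abundant mRNA per length in every tKO library, and the less abundant one in WT cells at 2 ng/ml.

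Cbfb, the shared partner of the RUNX proteins, did not pass in any comparison. It lay between 33.2 and 40.5 FPKM in tKO libraries and between 37.7 and 47.9 FPKM in WT libraries. Over the doses the difference was -0.16 ± 0.11 (adjusted p = 0.296), with a 95% interval of -0.39 to 0.07. Cbfb exceeded Runx1 and Runx2 in FPKM in every library, and Runx3 too. Runx2, which is best known from bone, lay between 0.175 and 1.09 FPKM in tKO and between 0.0725 and 0.712 FPKM in WT, below the mean of 1 FPKM required for testing.

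Id2 and Id3 moved in opposite directions, and the gap was widest without TGF-b. Id2 had 284.5 and 328 FPKM in tKO and 70.6 and 108 FPKM in WT at 0 ng/ml, then 193 and 212 FPKM in tKO and 68.9 and 102 FPKM in WT at 0.2 ng/ml. At 2 ng/ml it had 107 and 74.3 FPKM in tKO and 93.1 and 94.98 FPKM in WT. The genotypes were apart at the lower doses and overlapped at 2 ng/ml, where WT lay inside the tKO range. The tKO minus WT difference in Id2 was 1.80 ± 0.24 (adjusted p = 0.000303) at 0 ng/ml, 1.26 ± 0.24 (adjusted p = 0.00312) at 0.2 ng/ml and -0.07 ± 0.24 (adjusted p = 0.872) at 2 ng/ml, the last with a 95% interval of -0.59 to 0.44. The 2 minus 0 ng/ml effect on Id2 was -1.76 ± 0.24 in tKO (adjusted p = 0.000401) and 0.11 ± 0.24 in WT (adjusted p = 0.810), and the difference between them was -1.87 ± 0.34 (adjusted p = 0.0111). That difference was no longer called without tKO at 0 ng/ml, replicate 2 (adjusted p = 0.0621), tKO at 2 ng/ml, replicate 2 (0.0856), WT at 0 ng/ml, replicate 1 (0.0680), or WT at 2 ng/ml, replicate 2 (0.0536). The call at 0.2 ng/ml was not kept when WT at 0.2 ng/ml, replicate 1, was left out (adjusted p = 0.0554). From 0.2 to 2 ng/ml, Id2 fell by 1.17 ± 0.24 in tKO (adjusted p = 0.0105), a call lost without replicate 2 of tKO at 0.2 ng/ml (adjusted p = 0.0822) or at 2 ng/ml (0.151).

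Id3 was the mirror case. Libraries at 0 ng/ml had 39.97 and 43.1 FPKM in tKO and 229.8 and 218 FPKM in WT. At 0.2 ng/ml they had 83.8 and 80.1 FPKM in tKO and 162 and 131 FPKM in WT, and at 2 ng/ml 70.8 and 91.9 FPKM in tKO and 159 and 123 FPKM in WT. All tKO libraries lay below all WT libraries. TGF-b moved the genotypes toward each other: Id3 rose in tKO, with a 2 minus 0 ng/ml effect of 0.94 ± 0.19 (adjusted p = 0.00425), and fell in WT, with an effect of -0.68 ± 0.19 (adjusted p = 0.0250). The difference between those effects was 1.62 ± 0.26 (adjusted p = 0.00626), and it kept its call whichever single library was left out. It lost the call without the series labelled tKO2 (adjusted p = 0.0894), WT1 (0.155) or WT2 (0.206). The 0.2 minus 0 ng/ml effect in tKO was 0.97 ± 0.19 (adjusted p = 0.0164), and it differed between the genotypes by 1.58 ± 0.26 (adjusted p = 0.0280). Most of the Id3 change in tKO was present at 0.2 ng/ml, since the 2 minus 0.2 ng/ml effect was -0.02 ± 0.19 (adjusted p = 0.960).

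The tKO minus WT difference in Id3 was -2.40 ± 0.19 (adjusted p = 3.26e-06) at 0 ng/ml, -0.82 ± 0.19 (adjusted p = 0.00884) at 0.2 ng/ml and -0.78 ± 0.19 (adjusted p = 0.0113) at 2 ng/ml. Over the doses Id3 differed by -1.34 ± 0.11 (adjusted p = 7.62e-07) and Id2 by 0.99 ± 0.14 (adjusted p = 0.000125). Several single-dose Id3 calls rest on 1 library. The difference at 0.2 ng/ml lost its call without WT at 0.2 ng/ml, replicate 1 (adjusted p = 0.101), and that at 2 ng/ml without replicate 1 of tKO (0.137) or of WT (0.107). The 2 minus 0 ng/ml call in tKO was lost without tKO at 2 ng/ml, replicate 2 (0.0695), and the one in WT without replicate 1 (0.145) or replicate 2 (0.0994) at 0 ng/ml, or replicate 2 (0.214) at 2 ng/ml. The 0.2 minus 0 ng/ml call in tKO was lost without replicate 1 (0.0951) or replicate 2 (0.0655) of tKO at 0 ng/ml. The difference of that effect between genotypes was lost without either replicate of tKO at 0 or 2 ng/ml or of WT at 0 or 0.2 ng/ml, with adjusted p between 0.0517 and 0.129.

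The ratio of Id2 to Id3 FPKM put this in 1 number per library. It was 7.12 and 7.62 in tKO and 0.307 and 0.494 in WT at 0 ng/ml, 2.31 and 2.64 in tKO and 0.426 and 0.778 in WT at 0.2 ng/ml, and 1.52 and 0.808 in tKO and 0.586 and 0.774 in WT at 2 ng/ml. The ratio fell with dose in tKO and stayed below 1 in every WT library. Id2 was the more abundant of the pair per length in all tKO libraries but 1, replicate 2 at 2 ng/ml.

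**Figure D2:**
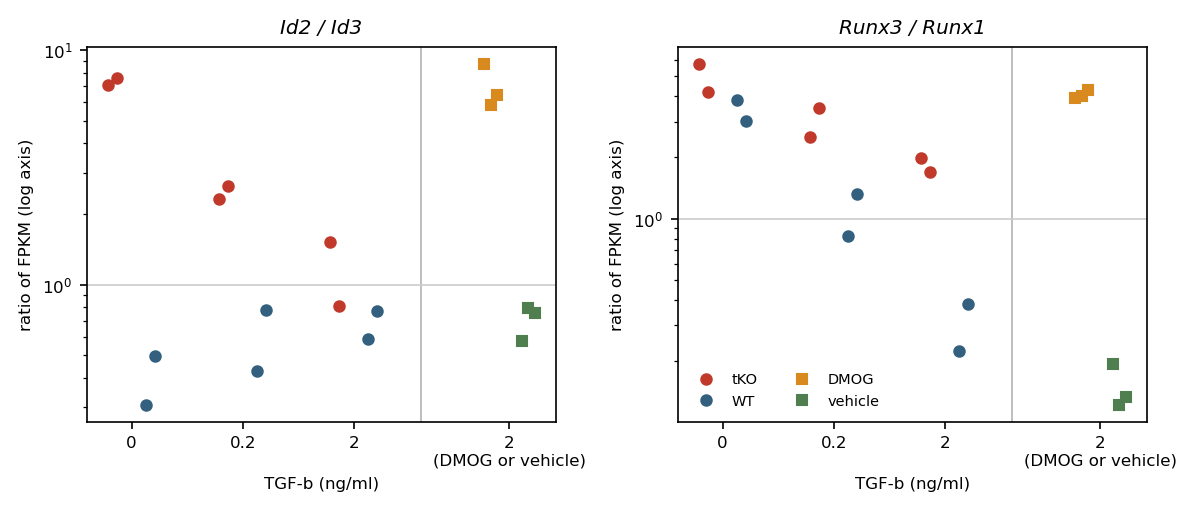
Ratio of Id2 to Id3 FPKM (left) and of Runx3 to Runx1 FPKM (right) per library on log axes, against TGF-b dose; circles are experiment 1 and squares experiment 2, whose values were normalized apart. DMOG libraries have Id2 to Id3 ratios of 5.86 to 8.73 against 0.572 to 0.791 with vehicle, and the tKO ratio declines with dose.

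Zeb1 rose with 2 ng/ml TGF-b in WT cells, did not pass in tKO cells and was not shown to differ by genotype. It averaged 3.62 ± 1.20 FPKM in tKO and 3.55 ± 0.39 FPKM in WT at 0 ng/ml, 5.90 ± 1.04 FPKM in tKO and 6.42 ± 2.14 FPKM in WT at 0.2 ng/ml, and 6.70 ± 1.24 FPKM in tKO and 9.09 ± 1.86 FPKM in WT at 2 ng/ml (SD, n = 2 each). The 2 minus 0 ng/ml effect was 0.75 ± 0.31 in tKO (adjusted p = 0.110) and 1.14 ± 0.31 in WT (adjusted p = 0.0237), and the difference of -0.39 ± 0.43 did not pass (adjusted p = 0.674). The WT call did not hold when replicate 1 (adjusted p = 0.0901) or replicate 2 (0.137) of WT at 0 ng/ml, or replicate 2 at 2 ng/ml (0.160), was left out. Over the doses the tKO minus WT difference was -0.16 ± 0.18 (adjusted p = 0.560).

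Zeb2 was scarce, and its highest values were in tKO cells without TGF-b. It had 1.65 and 1.79 FPKM in tKO and 0.333 and 0.154 FPKM in WT at 0 ng/ml, and 1.08 and 0.585 FPKM in tKO and 0.0832 and 0.717 FPKM in WT at 0.2 ng/ml. At 2 ng/ml it had 0.830 and 0.367 FPKM in tKO and was listed at 0 in both WT libraries. The genotypes overlapped at 0.2 ng/ml alone. Zeb2 missed the required mean. In a fit without that filter, which called 17.4% of 15833 genes over the doses, the tKO minus WT difference in Zeb2 over the doses was 0.74 ± 0.14 (adjusted p = 0.00924) and that in Runx2 was 0.15 ± 0.13 (adjusted p = 0.528).

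Of the 9 genes, 7 were tested in experiment 1. Over the doses 4 of 7 differed between tKO and WT, with Runx3 and Id2 higher and Sox4 and Id3 lower, where 27.2% of all tested genes were called. The members called were 3 of 7 at 0 ng/ml (9.64% of all genes), 4 of 7 at 0.2 ng/ml (15.5%) and 3 of 7 at 2 ng/ml (16%). For TGF-b in tKO they were 1 of 7 for 0.2 minus 0 ng/ml (2.48%), 4 of 7 for 2 minus 0 ng/ml (18%) and 2 of 7 for 2 minus 0.2 ng/ml (9.57%). The counts in WT were 1 of 7 for 0.2 minus 0 ng/ml (1.59%), 5 of 7 for 2 minus 0 ng/ml (15.7%) and 1 of 7 for 2 minus 0.2 ng/ml (0.435%). The TGF-b effect differed between genotypes in 3 of 7 for 2 minus 0 ng/ml (2.97%) and in 1 of 7 for 0.2 minus 0 ng/ml (0.435%). All of these comparisons share libraries and are not separate evidence. The median difference of the 7 over the doses was -0.16, against -0.02 for all tested genes. Without the series labelled tKO1, which holds the Y chromosome transcripts, the difference over the doses was -2.36 for Sox4, 1.47 for Runx3, 0.96 for Id2 and -1.27 for Id3, each still called. That fit has 1 tKO library per dose, all of tKO2, and takes its spread from the WT groups alone.

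With DMOG in wild-type cells at 2 ng/ml TGF-b, Sox4 and Id3 were lower and Runx3 and Id2 higher, the directions seen in tKO over the doses. At 2 ng/ml itself, Id2 did not pass between tKO and WT (-0.07, adjusted p = 0.872, limma). Sox4 was 0.566, 0.537 and 0.707 FPKM with DMOG and 42.9, 51.7 and 50.0 FPKM with vehicle. The mean with vehicle was 79.9 times that with DMOG, and the difference was -4.94 ± 0.11 (adjusted p = 7.70e-16). Runx3 was 44.5, 32.0 and 40.7 FPKM with DMOG and 3.76, 1.91 and 2.48 FPKM with vehicle, a ratio of means of 14.4 and a difference of 3.45 ± 0.16 (adjusted p = 6.70e-12). Neither gene's groups came near each other.

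Id3 was 7.34, 8.74 and 10.1 FPKM with DMOG and 47.9, 39.2 and 41.8 FPKM with vehicle, a difference of -2.18 ± 0.13 (adjusted p = 1.17e-10). Id2 was 64.1, 51.2 and 64.8 FPKM with DMOG and 27.4, 31.0 and 31.5 FPKM with vehicle, a difference of 0.97 ± 0.12 (adjusted p = 2.24e-06). The groups were apart in both genes. The Id2 to Id3 ratio was 8.73, 5.86 and 6.43 with DMOG and 0.572, 0.791 and 0.754 with vehicle.

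**Figure D3:**
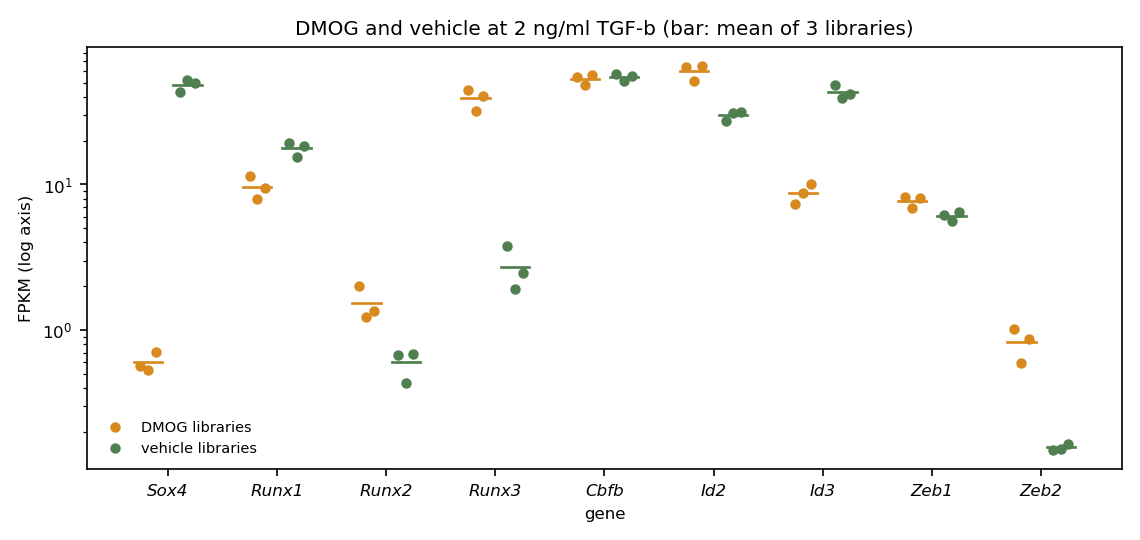
FPKM on a log axis of the 9 genes in experiment 2, each point a library, DMOG left of vehicle, bars at the mean of 3. The groups overlap in Cbfb alone, but overlap was not counted over all genes, of which 60.8% of those tested were called here. Sox4 is 0.537 to 0.707 FPKM with DMOG and 42.9 to 51.7 FPKM with vehicle.

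Zeb1 was 8.16, 6.85 and 8.08 FPKM with DMOG and 6.15, 5.63 and 6.45 FPKM with vehicle, a small difference of 0.29 ± 0.11 (adjusted p = 0.0286). It lost its call without vehicle replicate 1 (adjusted p = 0.0610), 2 (0.0998) or 3 (0.0508), or DMOG replicate 1 (0.0714) or 3 (0.103). Zeb2 was 1.02, 0.599 and 0.868 FPKM with DMOG and 0.151, 0.153 and 0.166 FPKM with vehicle. The groups did not overlap, but the mean was under 1 FPKM. Without the filter, where 46.8% of 16036 genes were called, the difference in Zeb2 was 0.65 ± 0.08 (adjusted p = 0.00105). Cbfb averaged 52.9 ± 4.5 FPKM with DMOG and 54.7 ± 3.2 FPKM with vehicle (SD, n = 3 each), a difference of -0.05 ± 0.11 (adjusted p = 0.731). Runx2 averaged 1.53 ± 0.42 FPKM with DMOG and 0.602 ± 0.143 FPKM with vehicle (SD, n = 3 each), and the groups did not overlap. It reached the required mean only through the DMOG group, so its filtered test is not given. In the fit without the filter its difference was 0.65 ± 0.13 (adjusted p = 0.00733). A fixed ratio in every library held among 3 of its 8 rows, so its sum is uncertain. With Runx2 left aside, 6 of 7 genes tested were called, 3 higher and 3 lower, where DMOG changed 60.8% of all tested genes, so calls are common in this comparison. Sox4 too lay under 1 FPKM in 1 group, here DMOG, and its difference was called without the filter as well (adjusted p = 1.76e-06).

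Runx1 in experiment 2 came as 4 distinct rows, and these moved in opposite directions. Their sum was 11.4, 7.97 and 9.52 FPKM with DMOG and 19.4, 15.5 and 18.5 FPKM with vehicle, a difference of -0.83 ± 0.13 (adjusted p = 3.47e-05). Numbered by level, row 1 averaged 0.905 ± 0.087 FPKM with DMOG and 10.9 ± 1.5 FPKM with vehicle, and row 4 averaged 0.222 ± 0.067 FPKM with DMOG and 2.68 ± 0.38 FPKM with vehicle (SD, n = 3 each). Row 2 averaged 6.25 ± 1.69 FPKM with DMOG and 3.30 ± 0.15 FPKM with vehicle, and row 3 averaged 2.26 ± 0.04 FPKM with DMOG and 0.968 ± 0.029 FPKM with vehicle. So DMOG lowered 2 rows and raised the other 2.

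With each row of the table as a feature, the differences in order of level were -2.63 ± 0.12 (adjusted p = 9.70e-10), 0.73 ± 0.15 (adjusted p = 0.00112), 0.73 ± 0.11 (adjusted p = 8.79e-05) and -1.59 ± 0.12 (adjusted p = 1.53e-07), where 57.1% of 11884 rows were called. Rows 1 and 4, which fell, made up 10.1%, 14.0% and 11.7% of the Runx1 sum with DMOG and 77.1%, 73.5% and 77.1% with vehicle. Of 1511 symbols with 2 or more tested rows, 67 (4.43%) had 1 row called higher and another called lower. The rows carry no transcript names, so none can be tied to the distal or the proximal start. In experiment 1, 1 row held nearly all of Runx1 and the other at most 0.997 FPKM. This fit was added after the Runx1 rows were seen to diverge.

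**Figure D4:**
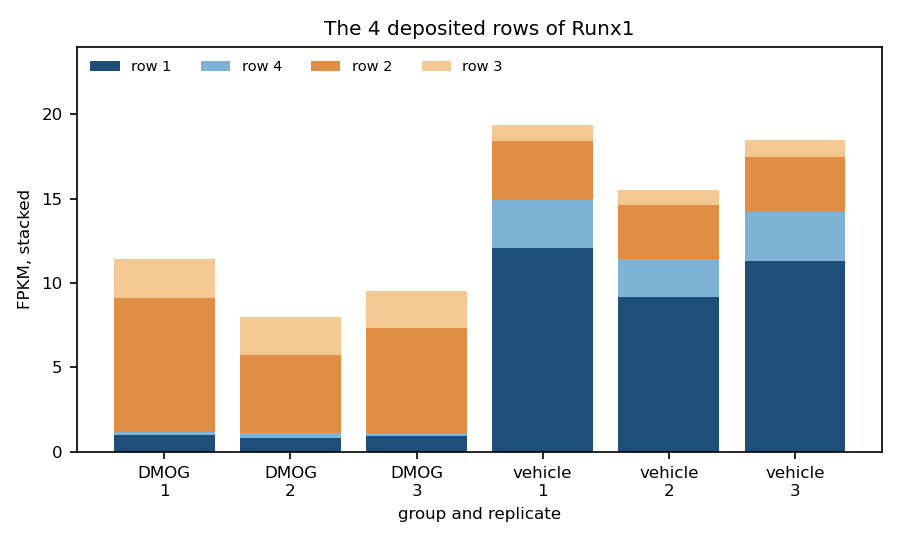
FPKM of the 4 deposited Runx1 rows stacked per library, the 3 DMOG libraries left of the 3 vehicle libraries. Rows 1 and 4 (blue) make up 10.1% to 14.0% of the sum with DMOG and 73.5% to 77.1% with vehicle.

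Set beside each other, the changes by gene loss and by inhibitor at 2 ng/ml TGF-b come from separate tables with no library in common, and were not tested against each other. Sox4 differed by -3.25 for tKO minus WT and -4.94 for DMOG minus vehicle, Runx3 by 2.33 and 3.45, and Id3 by -0.78 and -2.18 in the same order. Id2 differed by -0.07 in tKO and 0.97 with DMOG, and Runx1 by -0.02 in tKO and -0.83 with DMOG. At 0 ng/ml the tKO minus WT difference was 1.80 in Id2 and -2.40 in Id3. Both were larger in size than the differences with DMOG, which was given at 2 ng/ml TGF-b.

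**Figure D5:**
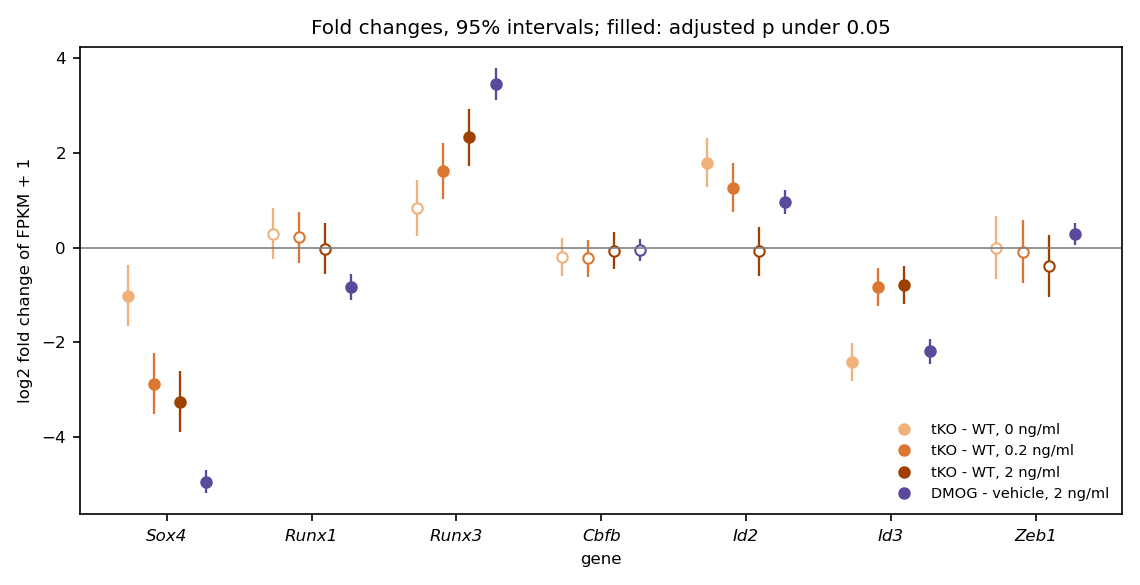
Log2 fold change of FPKM + 1 with 95% intervals from limma for the 7 genes tested in both experiments, for tKO minus WT at 3 doses and DMOG minus vehicle; filled points had an adjusted p under 0.05. Sox4 runs to -4.94 and Runx3 to 3.45 with DMOG, while Cbfb stays near 0.

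E proteins and other Id genes are the direct partners and relatives of Id2 and Id3. Over the doses 2 of the 4 tested passed, against 27.2% of all tested genes. Id1, a further Id gene, rose by 1.90 ± 0.16 in tKO (adjusted p = 1.60e-06), with 17.7 ± 3.9 FPKM in tKO and 2.87 ± 0.77 FPKM in WT at 0.2 ng/ml (SD, n = 2 each). Tcf12, which encodes the E protein HEB, fell by 0.63 ± 0.17 in tKO (adjusted p = 0.0130). With DMOG, Id1 rose by 1.47 ± 0.11 (adjusted p = 3.24e-09) and Tcf3 by 0.31 ± 0.12 (adjusted p = 0.0377), and Tcf12 fell by 0.87 ± 0.12 (adjusted p = 1.16e-05). Tcf4 averaged 1.90 FPKM with DMOG and 0.886 FPKM with vehicle. It reached the required mean only through the DMOG group, so its filtered test is not given. All 4, Tcf4 among them, were called with DMOG, against 60.8% of all genes, and none for 2 minus 0 ng/ml in WT, against 15.7%.

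Cofactors of RUNX and ZEB proteins, such as Groucho-family and CtBP corepressors, gave 1 call among 8 tested over the doses, against 27.2% of all genes. It was Ctbp1, lower at -0.45 ± 0.14 (adjusted p = 0.0246). With 2 ng/ml TGF-b in WT, 1 of 8 was called, against 15.7% of all genes. It was Tle1, which rose by 1.09 ± 0.28 (adjusted p = 0.0187). With DMOG, 2 of 8 rose and 2 fell, against 60.8% of all genes called; the corepressor gene Tle4 had the smallest p, at -1.26 ± 0.11 (adjusted p = 4.89e-08). No other SOX gene reached the mean required for testing in experiment 1, among 12 in the table. In experiment 2, 1 was tested and did not pass, with a difference of -0.07.

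Genes described in T cells as bound or regulated by RUNX proteins were called in 10 of 13 over the doses, 8 higher and 2 lower in tKO, against 27.2% of all tested genes. At the single doses 4 were higher and 2 lower at 0 ng/ml (9.64% of all genes called), 6 higher and 2 lower at 0.2 ng/ml (15.5%), and 4 higher and 0 lower at 2 ng/ml (16%). Their median difference was 0.77, against -0.02 for all tested genes. Csf2, which encodes GM-CSF, rose by 4.65 ± 0.23 (adjusted p = 1.39e-08), and Tbx21, which encodes T-bet, by 3.77 ± 0.26 (adjusted p = 1.84e-07). Il4, whose silencer RUNX3 binds in mouse Th1 cells, averaged 47.2 FPKM in tKO and 0.169 FPKM in WT at 0 ng/ml. It averaged 2.22 and 0 FPKM at 0.2 ng/ml, and 0.127 and 0.457 FPKM at 2 ng/ml, in the same order. Ifng averaged 25.4, 19.9 and 17.4 FPKM in tKO and 1.72, 0 and 0.0347 FPKM in WT at the rising doses. Both reached the required mean only through tKO cells, so the filter shaped the counts and the median. Their filtered genotype tests are not given. Foxp3, the regulatory T cell factor whose upkeep needs RUNX with CBFb, fell by 1.98 ± 0.16 over the doses (adjusted p = 9.83e-07). Its single-dose differences were -3.78 at 0 ng/ml (adjusted p = 2.42e-06), -1.79 at 0.2 ng/ml (0.000807) and -0.36 at 2 ng/ml (0.434, not passing). With DMOG, 7 of 14 rose and 5 fell, against 60.8% of all genes called, with a median of 0.55 against -0.03 for all tested genes. Gzmb, a cytotoxic granule protease, averaged 79.5 FPKM with DMOG and 0.346 FPKM with vehicle, and Ifng averaged 41.0 and 0.107 FPKM. Both, with Tbx21, Csf2, Il4 and Cd8a, were counted as higher but averaged under 1 FPKM with vehicle. They reached the required mean only through the DMOG group, so the filter shaped this count and median. Their filtered tests with DMOG are not given. For 2 minus 0 ng/ml in WT, 2 of 13 rose and 3 fell, against 15.7% of all genes called. The integrin gene Itgae rose by 5.58 ± 0.36 (adjusted p = 1.22e-06) and Gzmb fell by 7.30 ± 0.55 (adjusted p = 3.48e-06).

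Lineage factors of CD4 and CD8 T cells, a list that shares Foxp3, Tbx21 and Zbtb7b with the RUNX list, were called in 9 of 13 over the doses, 4 higher and 5 lower in tKO, against 27.2% of all genes. Tcf7, which encodes TCF1 of naive and memory cells, fell by 1.65 ± 0.11 (adjusted p = 9.30e-08) and Gata3, the Th2 factor, rose by 1.28 ± 0.11 (adjusted p = 9.79e-07), though at 0.2 ng/ml alone Gata3 did not pass (0.53, adjusted p = 0.0693). In WT, 2 ng/ml TGF-b raised 5 of 13 and lowered 1, against 15.7% of all genes called. The gene lowered was Tbx21, which fell by 3.65 ± 0.45 (adjusted p = 0.000180). Maf rose by 3.73 ± 0.33 (adjusted p = 1.43e-05). With DMOG, 2 of 13 rose and 9 fell, against 60.8% of all genes called. Among those that fell was Bcl6, the follicular helper factor, by 2.88 ± 0.12 (adjusted p = 2.21e-12). Tbx21, counted as higher, averaged 0.145 FPKM with vehicle and reached the required mean only through the DMOG group. Of 10 tested TGF-b response genes, 8 rose with 2 ng/ml in WT (15.7% of all tested genes called) and 7 in tKO (18%). Over the doses 2 were higher and 2 lower in tKO (27.2%). DMOG raised 2 of 11 and lowered 6, against 60.8% of all genes called.

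Markers of other cells were summed beside these results. Both CD8 chain genes together had 7.49 to 14.6 FPKM in tKO and 4.02 to 8.84 FPKM in WT, and 6.86 to 10.8 FPKM with DMOG and 6.33 to 8.49 FPKM with vehicle. B cell markers summed to 15.4 to 83.0 FPKM in tKO and 14.4 to 60.5 FPKM in WT. They summed to 0.843 to 1.20 FPKM with DMOG and 6.85 to 11.3 FPKM with vehicle. In experiment 2, 2 to 3 of 5 were listed at 0 with DMOG and 0 to 1 with vehicle. Most of each B cell sum there was Cd79b, which averaged 0.932 FPKM with DMOG and 7.42 FPKM with vehicle. The other B cell markers averaged under 1 FPKM in both groups and were lower with DMOG. Myeloid markers summed to at most 1.35 FPKM in tKO and 4.46 FPKM in WT, with 3 to 5 of 5 listed at 0. They had 0.119 to 0.344 FPKM with DMOG and 6.65 to 7.13 FPKM with vehicle. Nearly all of the vehicle sum was Itgam, which averaged 6.85 FPKM with vehicle and 0.0152 FPKM with DMOG. The others were scarce. With DMOG against vehicle, Cd14 averaged 0.142 and 0.0216 FPKM, Emr1 0.0441 and 0.0235 FPKM, and Csf1r 0 and 0.0107 FPKM. NK markers, of which 1 to 2 of 4 were listed at 0 in experiment 1, had 114 to 499 FPKM in tKO and 226 to 424 FPKM in WT. They had 75.3 to 82.0 FPKM with DMOG and 135 to 172 FPKM with vehicle. Nearly all of each NK sum was Nkg7, which averaged 77.6 FPKM with DMOG and 146 FPKM with vehicle. Klrd1 averaged 1.71 and 7.38 FPKM in the same order, and Klrb1c 0 and 0.360 FPKM. In experiment 1 Ncr1 was listed at 0 in every group. Dendritic cell markers, of which 1 to 3 of 5 were listed at 0 in experiment 1, had 695 to 896 FPKM in tKO and 277 to 908 FPKM in WT. They had 181 to 296 FPKM with DMOG and 93.5 to 113 FPKM with vehicle. Most of each sum was Cd74, which averaged 225 FPKM with DMOG and 104 FPKM with vehicle. The others were scarce in experiment 2 and not higher with DMOG: H2-Aa averaged 0.321 against 1.35 FPKM, Itgax 0.0196 against 0.0466 FPKM and Flt3 0.0305 against 0.0324 FPKM. The part of these in the results was not tested.

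Across the 12 libraries of experiment 1, log2(FPKM + 1) of Sox4 and Runx3 correlated at -0.90, Id2 and Id3 at -0.81, Runx1 and Zeb1 at 0.82, and Sox4 and Zeb1 at 0.75 (Pearson). These describe libraries that share genotype and dose groups, so they restate the group differences. Among 7505 genes at a mean of 5 FPKM or more and above 0 in every library, the patterns nearest to Sox4 were those of Pnrc2 (0.976), Sh2d2a (0.975) and Lpxn (0.975). For Runx3 they were Ak4 (0.973), Nfkb2 (0.970) and Rxra (0.970), and for Runx1 Plekhf2 (0.971), Jup (0.961) and Fbxo2 (0.956). Zeb1 was most like Aftph (0.972), Cnot6 (0.945) and Vps54 (0.944). Id2 was most like Rap1b (0.955), Fam105b (0.946) and Atp6v0b (0.944), and Id3 like Lfng (0.936), Dpysl2 (0.924) and Lta4h (0.923). Cbfb had the loosest likeness, to Filip1l (0.881), Galnt2 (0.864) and Wiz (0.852).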

How the data were processed

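Each experiment has 1 deposited table, which gives FPKM (fragments scaled to transcript length and to mapped fragments) for every library, per the file headers. Per the labels' protocols, RNA was amplified with the SMARTer Ultra low input kit, which does not mark strand. Trimmomatic, TopHat, Cufflinks, Cuffdiff and mm9 are named, without versions, per the submitters' processing notes. No counts were used, so no count model and no counting interval is given. Exact duplicate rows (18 in experiment 1, 291 in experiment 2) were dropped and distinct rows of a symbol were summed.

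Genes averaging 1 FPKM or more (10354 and 9884) were tested on log2(FPKM + 1) with limma 3.58.1 in R 4.3.3, group means as coefficients, a trended variance and all libraries of a table. P-values are two-sided and Benjamini-Hochberg adjusted over all tested genes, with a threshold of 0.05. This scale understates changes of low genes. The tables were normalized separately and tested apart. The method was tested on simulated data. The members, lists and tests were chosen with earlier results of these data known. All 9 members are named, and of each list at most 4 called genes per comparison, by smallest p-value. For each member the 3 genes of highest Pearson correlation are named. Alternatives were another pseudocount, no filter, quantile normalization, the largest row of a symbol, a replicate block (over all libraries, and within each genotype, that form added after seeing the data), the compared groups alone, the labelled series as a random factor or averaged, and each library or series left out.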

Additional observations from a re-analysis of the deposited data

Results flagged for a closer look

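The effect of TGF-b on 3 genes differed between tKO and WT by limma's interaction term. For 2 minus 0 ng/ml the tKO minus WT difference of effects was -2.24 for Sox4 (adjusted p = 0.0139), -1.87 for Id2 (adjusted p = 0.0111) and 1.62 for Id3 (adjusted p = 0.00626). For 0.2 minus 0 ng/ml it was 1.58 for Id3 (adjusted p = 0.0280). For 2 minus 0 ng/ml the call held under 15 of 24 alternatives for Sox4, 16 of 24 for Id2 and 21 of 24 for Id3, and with a pseudocount of 0.1 the Sox4 value was -1.47 (adjusted p = 0.207). For 0.2 minus 0 ng/ml the Id3 call held under 10 of 24. Sox4 rose with TGF-b in both genotypes, Id2 fell in tKO and was not called in WT, and Id3 rose in tKO and fell in WT. Each group has 2 or 3 libraries, too few to look for a single sample apart from its group.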

How the results depend on the processing

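With Runx2 left aside, of 38 called member results 20 were called under every alternative run and 18 were lost under at least 1; none reversed. The differences over the doses for Sox4, Runx3, Id2 and Id3, and the DMOG differences other than that of Zeb1, kept their calls throughout. The number of members called changed by over 1.5 times in the following cases. Without a filter they were 3 for 2 minus 0 ng/ml in WT, 1 for 2 minus 0.2 ng/ml in tKO, 1 for the genotype difference of the 2 minus 0 ng/ml effect and 0 for that of the 0.2 minus 0 ng/ml effect. With the compared groups alone, not run for the average over doses, they were 0 for 2 minus 0.2 ng/ml in WT, 0.2 minus 0 and 2 minus 0.2 ng/ml in tKO, and the genotype difference of the 0.2 minus 0 ng/ml effect. That fit also lost Sox4 at 0 ng/ml (adjusted p = 0.0614) and Id3 at 0.2 ng/ml (0.0697), and the fit without a filter added Zeb2 over the doses (0.00924). With 1 library or series left out, the members called ranged from 3 to 5 for 2 minus 0 ng/ml in WT, 0 to 1 for 2 minus 0.2 ng/ml in WT, 0 to 1 for 0.2 minus 0 ng/ml and 0 to 2 for 2 minus 0.2 ng/ml in tKO, 1 to 4 for tKO minus WT at 0.2 ng/ml, 0 to 4 for the genotype difference of the 2 minus 0 ng/ml effect and 0 to 2 for that of the 0.2 minus 0 ng/ml effect. The causes were not tested. The series number marks a source across the doses in tKO, where deviations of same-numbered libraries correlated between 0.11 and 0.42. It was not shown to pair libraries in WT (0.06 to 0.19), between genotypes (-0.11 to 0.25) or in experiment 2 (-0.19 to 0.44). A replicate block over all libraries left 4 members called over the doses and lost 1 call, Sox4 at 0 ng/ml (adjusted p = 0.0512), and gained 1, the genotype difference of the 2 minus 0 ng/ml effect on Runx3 (adjusted p = 0.0475). A replicate block within each genotype, run for the dose effects after the Y transcripts were seen, lost no member call and gained that difference (adjusted p = 0.0366). Over all genes it called 686, against 308 without a block, for the genotype difference of the 2 minus 0 ng/ml effect, 106 against 45 for that of the 0.2 minus 0 ng/ml effect, 283 against 165 and 122 against 45 for 0.2 minus 0 and 2 minus 0.2 ng/ml in WT, and 413 against 257 and 1542 against 991 for the same steps in tKO. The genotype difference of the 0.2 minus 0 ng/ml effect on Sox4, not called otherwise, was called under 1 of 24 alternatives. Quantile normalization moved the share of higher calls for 2 minus 0.2 ng/ml in tKO to 40.6% of all called genes, against 22.3%. Groups hold 2 or 3 libraries, and depth is unknown.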
